A study of Danio rerio with 6 samples.

Results

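Most abundant transcripts of the zebrafish embryo differ in level between 24 hours post fertilization (hpf), when organs are forming, and 96 hpf, when the larva has hatched. The 200 transcripts described here are abundant ones whose level stayed within 1.5-fold over both stages and the offspring of all 3 parental groups. Within that limit many still differed between the stages. The 200 were chosen by their measured values from 57761 transcript IDs. A transcript had to be above 0 in all 6 libraries with its highest FPKM at most 1.5 times its lowest, and the 200 with the highest lowest-library value were taken. FPKM is a count of sequenced fragments divided by transcript length and library size, so transcripts can be compared with each other.

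The embryos (F1) came from wild-type AB zebrafish (F0) of 3 months. These parents had lived for more than 21 days in normal water (control), in 0.078 µM copper (5 µg/L) or in 0.156 µM copper (10 µg/L), and all embryos were raised in water without added copper. Pools of 50 to 60 whole embryos, picked by phenotype, were taken at 24 or 96 hpf. The design text names 3 biological repetitions per group, but each of the 6 combinations is represented by 1 library, and whether it pools those repetitions was not stated. Nothing here carries a replicate error. The choice of the 200 used every library, and the levels and differences below are therefore a description with no test.

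Transcripts with a steady level across development are the usual choice of reference for measuring other genes, and transcripts needed by nearly every cell type, such as those of protein synthesis and energy metabolism, are commonly found among them. A relative unit such as FPKM can show a steady level only with respect to the rest of the library. Copper is a cofactor of enzymes of respiration and antioxidant defence and is toxic in excess. The files list these transcripts by Ensembl ID alone and no table used here pairs the IDs with genes, so no gene name, protein or sequence is given to any of them.

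Of the 57761 transcripts, 46466 were above 0 in all 6 libraries and 4966 of these, 10.7%, stayed within the limit of 1.5. The limit was met less often at the lowest and at the highest levels than between them. Among transcripts whose lowest value lay between 1 and 5 FPKM, 17.4% stayed within it, against 35.1% between 5 and 10 FPKM and 39.1% between 10 and 20 FPKM. The share was 35.7% between 200 and 500 FPKM, 10.7% between 500 and 1000 FPKM (8 of 75 transcripts), and 20% at 1000 FPKM or more (6 of 30 transcripts). The least abundant of the 200, ENSDART00000052183, had 63.8 FPKM in its lowest library, and 600 transcripts reached that value in all 6 libraries. Of these 600, 400 were over the limit and not chosen: 182 had a ratio of highest to lowest above 1.5 and up to 2, 184 above 2 and up to 4, and 34 above 4.

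**Figure D1:**
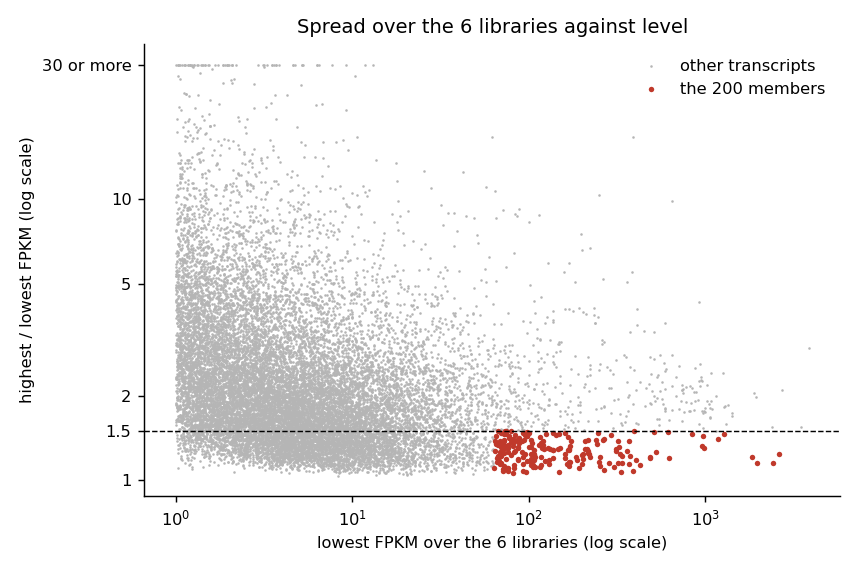
Each point is a transcript of at least 1 FPKM in all 6 libraries (17808), with its lowest FPKM on the horizontal axis and the ratio of its highest to its lowest FPKM on the vertical axis, both on log scales, with ratios of 30 or more drawn at 30. The 200 members (red) lie below the dashed line at 1.5 and at 63.8 FPKM or more, where 400 other transcripts (grey) lie above the line.

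At the edges of the choice the values run on without a gap. ENSDART00000131508 was the member closest to the limit, at a ratio of 1.498. It had 116, 119 and 115 FPKM at 24 hpf and 79.6, 100.3 and 86.1 FPKM at 96 hpf, here and below in the order control, 0.078 µM and 0.156 µM. ENSDART00000061001 lay just outside at a ratio of 1.501, with 1720, 1647 and 1694 FPKM at 24 hpf and 1146, 1146 and 1268 FPKM at 96 hpf. Both were lower in every library of 96 hpf than in any of 24 hpf. By level, the last member, ENSDART00000052183, had 66.6, 69.5 and 66.9 FPKM at 24 hpf and 63.8, 70.7 and 67.2 FPKM at 96 hpf. The next transcript within the limit, ENSDART00000108787, had a lowest value of 63.7 FPKM and a ratio of 1.403.

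The 200 members cover a wide range of abundance. Their lowest-library values ran from 63.8 to 2608 FPKM with a median of 108 FPKM. At least 100 FPKM in every library were held by 114 members, at least 200 FPKM by 55, at least 500 FPKM by 14 and at least 1000 FPKM by 6. Within a library the most abundant member ranked 5 to 8 among all transcripts, and the least abundant ranked 898 to 1079. Together the members held 9.14% to 9.31% of all FPKM in the 3 libraries of 24 hpf and 10.0% to 10.3% in those of 96 hpf. Their summed FPKM was lower at 96 hpf, 47753 to 50485 against 50565 to 52432, while the sums over all identifiers fell further, from between 553252 and 562987 to between 476499 and 491171. A sum of FPKM is a relative measure and not an amount of RNA. In pools of whole embryos, a change in the number of cells of a type and a change in RNA per cell cannot be told apart.

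The most abundant member was ENSDART00000170044, with 2956, 2608 and 2780 FPKM at 24 hpf and 3099, 3185 and 3224 FPKM at 96 hpf. The next, ENSDART00000141737, had 2425, 2489 and 2454 FPKM at 24 hpf and 2492, 2784 and 2435 FPKM at 96 hpf. ENSDART00000105726 followed with 2017, 1958 and 1949 FPKM at 24 hpf and 2040, 2183 and 2253 FPKM at 96 hpf. The first and the third of these were higher in every library of 96 hpf than in any of 24 hpf, whereas the stages overlapped for ENSDART00000141737, whose 0.078 µM library of 96 hpf stood above the other 5.

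Further down, most of the 10 most abundant members had the opposite order. ENSDART00000159178 had 2205, 2159 and 2068 FPKM at 24 hpf and 1858, 1940 and 1829 FPKM at 96 hpf. ENSDART00000054987 had 1875, 1724 and 1822 FPKM at 24 hpf and 1348, 1279 and 1607 FPKM at 96 hpf. ENSDART00000168497 had 1657, 1605 and 1609 FPKM at 24 hpf and 1183, 1211 and 1277 FPKM at 96 hpf. In each of these 3 the stages did not overlap and 96 hpf was lower.

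The same order held for the next members by level apart from ENSDART00000162546. That transcript had 1269, 1243 and 977 FPKM at 24 hpf and 1184, 1273 and 1248 FPKM at 96 hpf, so that its 0.156 µM library of 24 hpf alone was low and the stages overlapped. ENSDART00000040422 had 1389, 1214 and 1220 FPKM at 24 hpf and 970, 1054 and 1142 FPKM at 96 hpf. ENSDART00000014207 had 1269, 1244 and 1234 FPKM at 24 hpf and 956, 1022 and 994 FPKM at 96 hpf. For both of these every library of 96 hpf was below every library of 24 hpf. ENSDART00000020084 closed the list of 10 with 1223, 1215 and 1171 FPKM at 24 hpf and 868, 888 and 835 FPKM at 96 hpf, again with 96 hpf lower throughout.

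The 10 steadiest members lay below the 10 most abundant in level. Over all members the ratio had no such order. Its median was 1.31 for lowest values under 100 FPKM and 1.24 both from 100 to 200 and from 200 to 500 FPKM. From 500 to 1000 FPKM (8 members) the median was 1.38, and at 1000 FPKM or more (6 members) 1.22. The ratio of highest to lowest FPKM ran from 1.066 to 1.498 over the 200, with a median of 1.28 and quartiles of 1.18 and 1.38. It was at most 1.1 for 9 members, at most 1.2 for 59 and at most 1.3 for 113. The smallest ratio, 1.066, was that of ENSDART00000098889, with 86.5, 86.5 and 82.0 FPKM at 24 hpf and 81.2, 82.8 and 83.6 FPKM at 96 hpf. ENSDART00000026866 had a ratio of 1.067 at a higher level, with 334, 334 and 332 FPKM at 24 hpf and 341, 354 and 337 FPKM at 96 hpf. The stages overlapped for the first of these, while for the second every library of 96 hpf was above those of 24 hpf by a small margin.

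ENSDART00000160370 had 157, 156 and 148 FPKM at 24 hpf and 153, 151 and 159 FPKM at 96 hpf, a ratio of 1.07. ENSDART00000036331 had 102, 104 and 96.8 FPKM at 24 hpf and 102, 103 and 97.8 FPKM at 96 hpf, also a ratio of 1.07. Neither separated the stages, and the second had its lowest value of either stage in the 0.156 µM library. ENSDART00000166238, the most abundant of the 10 steadiest, had 407, 422 and 412 FPKM at 24 hpf and 397, 393 and 390 FPKM at 96 hpf. ENSDART00000039788 had 287, 267 and 279 FPKM at 24 hpf and 265, 280 and 283 FPKM at 96 hpf. The first of this pair was slightly lower at 96 hpf in every library and the second overlapped between the stages. The remaining 4 of the 10 steadiest, ENSDART00000108518, ENSDART00000003940, ENSDART00000103293 and ENSDART00000078781, lay between 71.5 and 101 FPKM in every library, with ratios of 1.079 to 1.1.

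**Figure D2:**
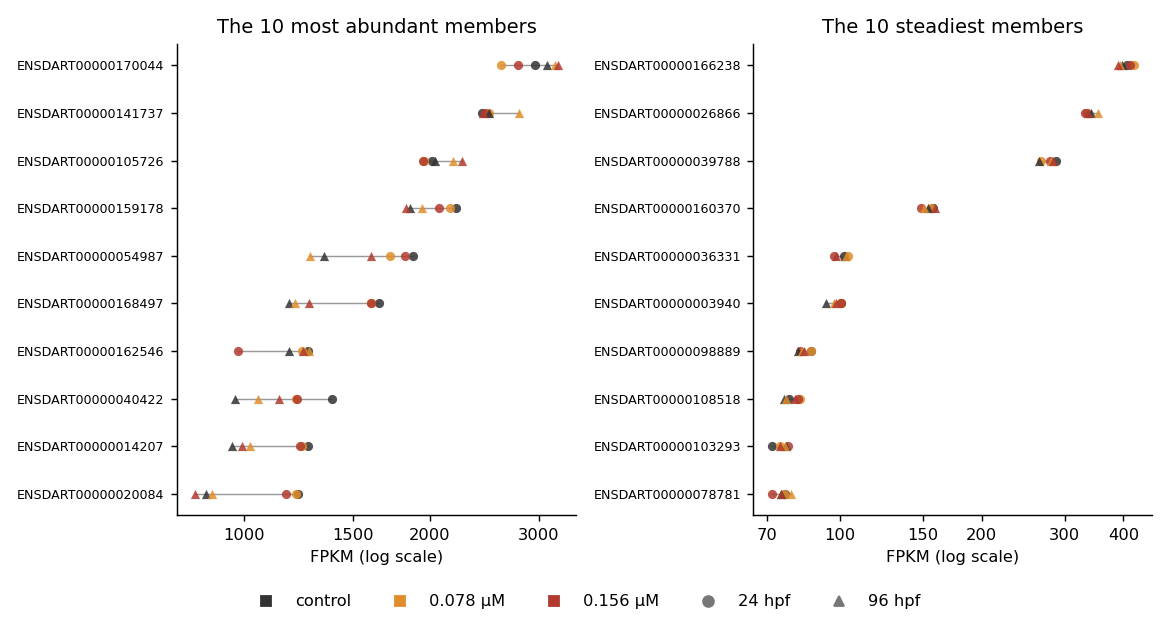
FPKM (horizontal, log scale) of the 10 most abundant members (left) and of the 10 with the smallest ratio of highest to lowest (right) in each of the 6 libraries, with colour for the parental group and circles for 24 hpf and triangles for 96 hpf; the grey line joins the lowest and the highest library. On the left 6 members have all triangles to the left of all circles, as in ENSDART00000159178 with 1940 FPKM or less at 96 hpf and 2068 FPKM or more at 24 hpf, whereas on the right the symbols lie within 1.066 to 1.1 times of each other.

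The members differed more between the stages than within them, as other transcripts did. The highest and the lowest library belonged to different stages in 174 of the 200 (90.1% of the 30136 transcripts that reached 1 FPKM in some library), both to 24 hpf in 10 and both to 96 hpf in 16. Between libraries of the same stage the median member differed by 1.04-fold to 1.07-fold in the 6 pairs, and between libraries of different stages by 1.15-fold to 1.18-fold in the 9 pairs. For all 600 transcripts of the same abundance, members included, the same medians were 1.04-fold to 1.08-fold within a stage and 1.55-fold to 1.63-fold between stages. Within 24 hpf the median ratio of the highest to the lowest of the 3 parental groups was 1.07 and 140 members stayed at 1.1 or below. Within 96 hpf it was 1.08, with 112 members at 1.1 or below. The counts at 1.1 or below have no share over other transcripts beside them. By the medians of pairs, the 600 of the same abundance were about as close within a stage. The mean of 96 hpf and the mean of 24 hpf differed by 1.15-fold in the median member and by 1.45-fold at most.

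**Figure D3:**
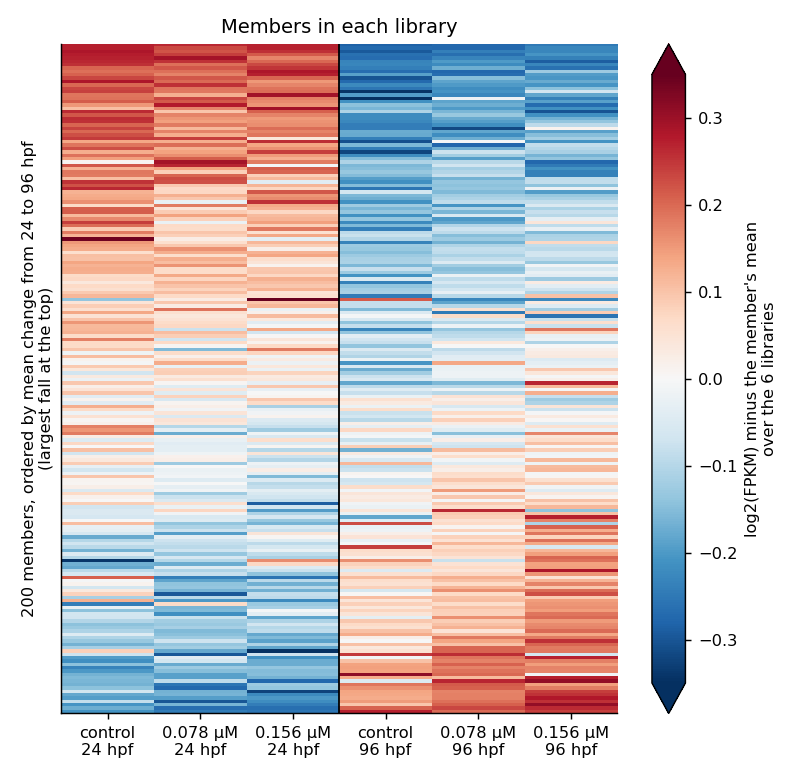
Each row is 1 of the 200 members and each column 1 library, with log2(FPKM) shown as the difference from the member's own mean over the 6 libraries and rows ordered by the mean change from 24 to 96 hpf. Red and blue change over at the line between the stages at the top, where 96 hpf is lower, and at the bottom, where it is higher. Rows with a small mean change show no such change-over, though a single library can stand apart. ENSDART00000162546, for example, had 977 FPKM in the 0.156 µM library of 24 hpf and 1184 FPKM or more in the others.

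In FPKM, more members lay lower at 96 hpf than higher. All 3 libraries of 96 hpf were above all 3 of 24 hpf in 49 members, against 38.9% of the 30136 transcripts that reached 1 FPKM in some library. All 3 were below in 81 members, against 32.4% of those transcripts, and the stages overlapped in 70 members. This split turned over with the scaling between libraries. With each library rescaled to the same sum, 102 members were above and 33 below at 96 hpf, and after quantile normalization 115 were above and 30 below. With size factors set at the median ratio of transcripts, 75 were above and 59 below. The direction of the members as a group thus depended on the scaling. No share over all transcripts was taken under these scalings, so the scaled counts cannot be read against 38.9% and 32.4%. All transcripts moved with the scaling too. In control their median log2 difference between the stages was 0.07 in FPKM and 0.28 after rescaling. It was -0.067 after quantile normalization and 0.14 with size factors.

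The members with the largest falls from 24 to 96 hpf, ranked by the mean of the 3 parental groups, had similar falls in each group. A mean fall this near the limit of 1.5 leaves little room for the groups to differ, so nothing is read from their likeness. ENSDART00000005119 had 236, 235 and 236 FPKM at 24 hpf and 161, 162 and 165 FPKM at 96 hpf. ENSDART00000159869 had 105, 102 and 105 FPKM at 24 hpf and 72.2, 72.0 and 74.4 FPKM at 96 hpf. ENSDART00000014188 had 99.9, 95.7 and 98.0 FPKM at 24 hpf and 67.0, 69.6 and 70.1 FPKM at 96 hpf. On the log2(FPKM + 1) scale their mean differences over the 3 parental groups were -0.53, -0.51 and -0.50, at the edge of what the limit of 1.5 allows.

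The largest rises were of a like size. ENSDART00000031047 had 101, 98.8 and 98.0 FPKM at 24 hpf and 141, 134 and 139 FPKM at 96 hpf, a mean log2 difference of 0.47. ENSDART00000027313 had 69.3, 64.9 and 65.0 FPKM at 24 hpf and 90.002, 91.8 and 93.6 FPKM at 96 hpf, a mean log2 difference of 0.46. ENSDART00000019235 had 152, 157 and 148 FPKM at 24 hpf and 187, 202 and 217 FPKM at 96 hpf, a mean log2 difference of 0.41. In all 3 the stages stood apart in every parental group, which the ranking by the mean of the groups favours.

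Set against each other within a parental group, the stages gave a median log2(FPKM + 1) difference of -0.12 over the members in control, -0.04 at 0.078 µM and -0.01 at 0.156 µM. Over the 30136 transcripts the medians were 0.07, 0.04 and 0.05. Members were counted where the larger value exceeded the smaller by at least 25% on this scale, which lies inside the window the limit leaves. In control 9 members were at least that much higher at 96 hpf (40.5% of all transcripts were) and 48 lower (32.8% of all). At 0.078 µM there were 19 higher (39% of all) and 33 lower (33.3% of all), and at 0.156 µM 22 higher (40.3% of all) and 32 lower (33.6% of all). These splits depended on the scaling. Rescaled to the same sum, the higher members numbered 46 (control), 57 (0.078 µM) and 61 (0.156 µM), and the lower ones 2, 2 and 6. In the same order, quantile normalization gave 61, 64 and 74 higher and 2 lower in each, and median-ratio size factors gave 23, 41 and 45 higher and 29, 10 and 14 lower. The shares of all transcripts were taken in FPKM alone and do not apply to these scaled counts. Because the limit of 1.5 was set on these same values and caps every difference, nothing is read from how the members compare with those shares.

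Differences between parental groups at the same stage had a narrower spread over the members, and fewer members passed the same threshold. At 24 hpf the median log2 difference from control was -0.025 at 0.078 µM and -0.037 at 0.156 µM, and at 96 hpf it was 0.034 and 0.068. Over all transcripts these medians lay between 0.00 and 0.01. At 24 hpf and 0.078 µM, 0 members were higher than control by at least that much (10.8% of all transcripts) and 3 lower (10% of all). At 24 hpf and 0.156 µM, 2 were higher (12.2% of all) and 5 lower (10.6% of all). At 96 hpf and 0.078 µM, 2 were higher (9.54% of all) and 1 lower (11% of all), and at 0.156 µM 6 were higher (11.9% of all) and 2 lower (11.9% of all). These shares depended on the filter. In either direction together, 20.8% and 22.8% of the 30136 transcripts passed at 24 hpf, and 20.6% and 23.7% at 96 hpf. Among transcripts of at least 1 FPKM in all 6 libraries, 12.7% and 14.0% passed at 24 hpf, and 11.3% and 14.2% at 96 hpf. Both doses of a stage were compared with the same control library, which enters both differences.

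**Figure D4:**
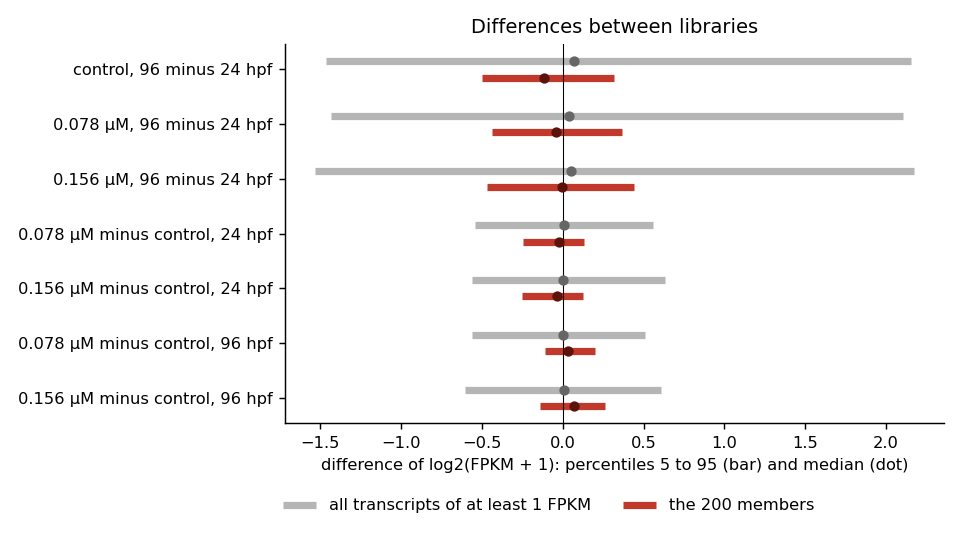
Differences of log2(FPKM + 1) for the 3 comparisons of 96 with 24 hpf and the 4 of copper with control, as percentiles 5 to 95 (bars) and medians (dots) over the 200 members (red) and over the 30136 transcripts that reached 1 FPKM in some library (grey). The red bars span -0.50 to 0.32 between the stages in control and -0.24 to 0.13 for 0.078 µM against control at 24 hpf, with medians below 0 at 24 hpf and above 0 at 96 hpf in the copper comparisons.

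The small copper differences had an order by stage. At 24 hpf, 97 members were below control at both doses (31.2% of all transcripts) and 43 above (35.7% of all). At 96 hpf, 24 were below control at both doses (33.3% of all) and 120 above (35.2% of all). Below control at 24 hpf and above it at 96 hpf were 61 members (11.3% of all), and the other way round 7 (12.1% of all). A fall in steps from control over 0.078 µM to 0.156 µM was found for 54 members at 24 hpf (16.2% of all) and a rise for 22 (17.7% of all). At 96 hpf a rise in steps was found for 83 members (20.1% of all) and a fall for 15 (17.7% of all). The control library of 96 hpf was the lowest of the 6 for 70 members (17.7% of all) and the highest for 8 (18.6% of all). The control library of 24 hpf was the highest for 56 (14.4% of all) and the lowest for 16 (19.4% of all), and the 0.156 µM library of 96 hpf was the highest for 58 (19.6% of all). Rescaled to the same sum, control of 96 hpf was the lowest for 22 and the highest for 31, and control of 24 hpf the highest for 26 and the lowest for 42. No share over all transcripts was taken after rescaling.

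The rule used all of these values, so the counts are a description, and they depended on the scaling. Rescaled to the same sum per library, 77 members were below and 62 above control at both doses at 24 hpf, 53 were below and 80 above at 96 hpf, and 32 were below at 24 hpf and above at 96 hpf. After quantile normalization 63 were below and 64 above at 24 hpf, 46 below and 85 above at 96 hpf, and 28 below and then above. With median-ratio size factors 109 were below and 31 above at 24 hpf, 25 below and 113 above at 96 hpf, and 61 below and then above. Sums of FPKM were lower in the copper libraries than in control at 24 hpf, 556233 and 553252 against 562987, and higher at 96 hpf, 486953 and 491171 against 476499. Whether these sums bear on the order of the members was not tested. The scaled counts have no share over all transcripts beside them, and nothing is read from how they differ between the scalings. Rescaling moved all transcripts too. Their median log2 differences from control became 0.021 and 0.025 at 24 hpf, and -0.021 and -0.022 at 96 hpf. The medians of the members became -0.0079 and -0.012 at 24 hpf, below these, and 0.0035 and 0.025 at 96 hpf, above these. Dividing a library by a single factor shifts members and all transcripts almost alike, so this was fixed beforehand and is no check.

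A few members stood out from this general closeness. ENSDART00000057869 had 94.4, 69.3 and 68.4 FPKM at 24 hpf and 88.2, 89.2 and 84.7 FPKM at 96 hpf. ENSDART00000108611 had 398, 318 and 313 FPKM at 24 hpf and 377, 394 and 405 FPKM at 96 hpf. In both, the copper libraries of 24 hpf were the lowest of the 6, with log2 differences from control of -0.44 and -0.46 for the first and -0.32 and -0.34 for the second.

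The largest common rises at 24 hpf were less even between the doses. ENSDART00000132156 had 95.1, 112 and 135 FPKM at 24 hpf and 135, 114 and 137 FPKM at 96 hpf. ENSDART00000080423 had 118, 144 and 133 FPKM at 24 hpf and 109, 110 and 97.1 FPKM at 96 hpf. For the first the order at 24 hpf followed the dose but the control library of 96 hpf was as high as the 0.156 µM library of 24 hpf, and for the second the 2 copper libraries of 24 hpf were the highest of the 6.

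At 96 hpf the largest common rise was that of ENSDART00000056286, with 426, 448 and 394 FPKM at 24 hpf and 460, 573 and 590 FPKM at 96 hpf. ENSDART00000080269 had 86.2, 86.5 and 86.3 FPKM at 24 hpf and 79.2, 95.1 and 108 FPKM at 96 hpf. The second was level over the parental groups at 24 hpf, within 1.004 times, and rose in steps with the dose at 96 hpf by 0.26 and 0.45 on the log2 scale. ENSDART00000121456 had the reverse order, with 69.0, 69.0 and 70.5 FPKM at 24 hpf and 87.1, 76.9 and 70.8 FPKM at 96 hpf. ENSDART00000160029 fell most at 96 hpf, with 79.3, 89.0 and 111 FPKM at 24 hpf and 101, 74.4 and 74.6 FPKM at 96 hpf. It was above control at both doses at 24 hpf and below at both at 96 hpf.

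Of the 5 members with the largest ratios, ENSDART00000131508, ENSDART00000056286, ENSDART00000160029 and ENSDART00000014188 are described above. The fifth, ENSDART00000014729, had 110, 106 and 107 FPKM at 24 hpf and 73.6, 81.0 and 89.1 FPKM at 96 hpf. It was lower at 96 hpf throughout, with its control library the lowest.

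Leaving a library out of the choice gives a reading that the choice did not use. When the 200 were chosen on the other 5 libraries, 180 (control, 96 hpf) to 195 (0.078 µM, 24 hpf) stayed within the limit of 1.5 once the left-out library was added. With control of 96 hpf left out, the value of that library lay below the range of the other 5 for 78 of the 200 and above it for 11. With control of 24 hpf left out, it lay above for 63 and below for 18. With 0.156 µM of 96 hpf left out, it lay above for 62 and below for 29. The 0.078 µM libraries lay inside the range of the other 5 for 140 at 24 hpf and 148 at 96 hpf, more often than the other libraries, which did so for 109 to 122. These readings were made in FPKM alone, with no share over all transcripts beside them. The sum of FPKM was lowest in control of 96 hpf and highest in control of 24 hpf, and a link to these readings was not tested. Among the members, control of 96 hpf was the lowest library for 22 and the highest for 31 after rescaling to the same sum. Quantile normalization gave 22 and 35, and median-ratio size factors 49 and 15.

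Most transcripts that such a choice let in missed the limit narrowly, but a few were steady in 5 libraries and far off in the left-out one. The following 4, the farthest from the nearest of the other 5, were picked after their values were seen. ENSDART00000031665 had 116, 118 and 144 FPKM at 24 hpf and 121 and 98.6 FPKM in control and 0.078 µM at 96 hpf, but was listed at 0 in the 0.156 µM library of 96 hpf. A value listed at 0 can be a failed estimate and is not taken as absence. ENSDART00000141849 had 74.0 FPKM in the 0.156 µM library of 24 hpf and 111 to 134 FPKM in the other 5. ENSDART00000059321 had 253 FPKM in the 0.156 µM library of 96 hpf and 130 to 174 FPKM elsewhere. ENSDART00000129762 had 88.7 FPKM in the 0.078 µM library of 24 hpf and 123 to 159 FPKM elsewhere. The library that stood apart was a copper library in each of the 4, and 4 of the 6 libraries are copper libraries. Over the 6 choices together, 70 cases went past the limit, 39 over the 4 choices without a copper library and 31 over the fewer choices without a control library. Single choices kept 185 to 195 of the 200 within the limit with a copper library left out. With control of 24 hpf and of 96 hpf left out they kept 189 and 180. With 1 library a group, the parental group and the single library cannot be told apart.

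More transcripts stayed within the limit over the 3 libraries of a single stage than over all 6. By the same rule on the libraries of 24 hpf alone, a choice made after seeing the data, 21055 of the 57761 transcripts stayed within 1.5. On those of 96 hpf alone 23726 did, against 4966 on all 6. A rule on 3 libraries is easier to pass than on 6 by construction, and no like count on 3 libraries across the stages is given. Of the 200 most abundant that were steady at 24 hpf, which all had at least 372 FPKM there, 23 stayed within 1.5 over all 6 libraries. The mean of 96 hpf was more than 2-fold lower for 80 of them and more than 2-fold higher for 5. Of the 200 most abundant that were steady at 96 hpf, with at least 313 FPKM there, 34 stayed within 1.5 over all 6, and the mean of 24 hpf was more than 2-fold lower for 41 and more than 2-fold higher for 32. The libraries of the stage left out of these choices were not used in them, so 177 and 166 of the 200 went past the limit in libraries that had no part in choosing them. Taking transcripts for a high level at a single stage favours those that are lower at the other. No share over all transcripts was set beside these counts, and nothing is read from their size or direction.

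Which transcripts count as steady depended on how libraries were made comparable. The same rule returned 169 of the 200 with median-ratio size factors, 137 after rescaling each library to the same sum, which turns FPKM into the unit TPM, and 96 after quantile normalization. The same 96 were returned under all 3 scalings and without each single library. They had a median ratio of 1.24, against 1.31 for the other 104, and include 8 of the 10 most abundant members and 4 of the 10 steadiest, ENSDART00000166238, ENSDART00000026866, ENSDART00000039788 and ENSDART00000160370. Of the 10 most abundant, ENSDART00000162546 and ENSDART00000040422 are not among them. A member far from the ratio limit and from the lowest level taken is more easily chosen again. The rule itself thus favours a lower ratio and a higher level among the 96.

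**Figure D5:**
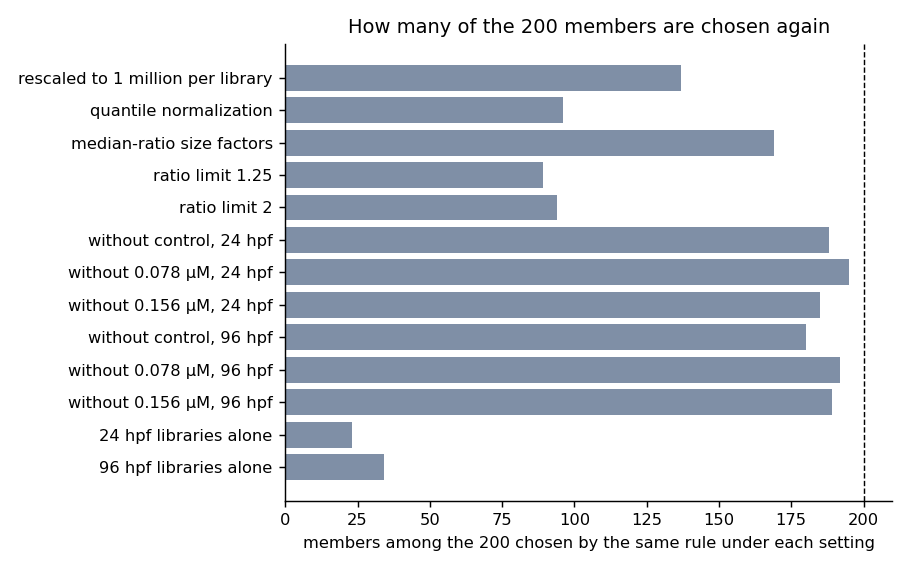
Bars give how many of the 200 members are among the 200 chosen by the same rule under each alternative, with the dashed line at 200. Leaving out a library returns 180 to 195, the scalings 96 to 169, other ratio limits 89 and 94, and a single stage 23 and 34.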

How the data were processed

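RNA-seq of pooled zebrafish embryos gave 6 libraries, 1 per parental group and stage. The authors deposited FPKM, with 1 value for each transcript, per the file headers. Per the submitters' processing notes, the tools were Trimmomatic, TopHat2 and Cufflinks 2.1.1. Their settings, the genome build, the annotation release, the scaling between libraries and any pooling of repeats were not given in the sources used here. Cufflinks divides fragments among the transcripts of a gene, so the FPKM of a single transcript depends on that division. Total depth is unknown, so no count test and no interval for counting error is given.

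Each library lists 58002 identifiers. The 241 gene IDs were left out of the choice and kept in library sums. Differences used log2(FPKM + 1), and background shares used transcripts that reached 1 FPKM in some library. Pseudocounts of 0.1 and 5, 3 scalings (sums of 1000000, quantile normalization, median-ratio size factors), ratio limits of 5/4 and 2, and leaving out each library were tried. Planned gene lists were not used, as no table pairs transcripts with genes. Named transcripts are the 10 most abundant, the 10 steadiest, the 5 least steady, the 3 largest rises and falls between stages, the 2 largest rises and falls common to both doses per stage, and those at the limits. The members and lists were chosen with earlier results of these data known. The code was tested on simulated data (Python 3.11.15, pandas 2.3.3).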

Additional observations from a re-analysis of the deposited data

Results flagged for a closer look

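The copper libraries lay on opposite sides of control at the 2 stages, and this difference was not tested. The median log2(FPKM + 1) difference of the members from control at 24 hpf was -0.025 at 0.078 µM and -0.037 at 0.156 µM, and at 96 hpf it was 0.034 and 0.068. In the same order the medians were -0.0079, -0.012, 0.0035 and 0.025 after rescaling to the same sum, -0.046, -0.049, 0.034 and 0.059 with median-ratio size factors, and 0.0045, -0.014, 0.0016 and 0.044 after quantile normalization, where the first of them no longer lay below 0.

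Among the named members, counting a transcript only where both doses were at least 1.1-fold from control at 24 hpf and again at 96 hpf, ENSDART00000160029 alone moved in opposite directions. Its log2 differences from control at 24 hpf were 0.16 at 0.078 µM and 0.48 at 0.156 µM. At 96 hpf they were -0.44 and -0.43. This difference between the stages was not tested either.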

How the results depend on the processing

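Of the alternatives tried, 101 kept the value of the main comparisons within the spread used (1 SD among like comparisons, or 1.5 times for counts) and 30 did not. This tally is no measure of robustness. The SD among the copper medians was 0.050, so a change from -0.025 to 0.0045 (0.078 µM, 24 hpf, quantile normalization) counted as kept. The tally also holds the pseudocounts, which change little at 63.8 FPKM or more. The libraries of 24 and 96 hpf can be paired by parental group, but no paired test was run, because the values that chose the members get no test. Each group has 1 library and the labels carry no replicate numbers. The stage differences are given within each parental group. Of the 200 members, 96 were chosen again after quantile normalization, 89 and 94 at ratio limits of 5/4 and 2 (1597 and 10835 transcripts within the limit), and 23 and 34 on the libraries of 24 or 96 hpf alone, added after seeing the data (21055 and 23726 within the limit). The median log2 difference between the stages in control, 0.078 µM and 0.156 µM was 0.12, 0.15 and 0.16 after rescaling to 1000000, 0.16, 0.20 and 0.23 after quantile normalization, and -0.020, 0.076 and 0.093 with median-ratio size factors, against -0.12, -0.04 and -0.01 in FPKM. Over all transcripts the same medians were 0.28, 0.20 and 0.21 after rescaling, and -0.067, -0.073 and -0.068 after quantile normalization. With size factors they were 0.14, 0.12 and 0.13, against 0.07, 0.04 and 0.05 in FPKM. By median the members thus lay below all transcripts in FPKM and above them after quantile normalization. They also lay below after rescaling and with size factors. Both of these divide a whole library by a single factor and shift members and all transcripts almost alike, so they add no separate reading. All 3 libraries of 96 hpf were above those of 24 hpf in 102, 115 and 75 members after rescaling, quantile normalization and size factors, and below in 33, 30 and 59. No share over all transcripts was taken under these scalings for any count of members. At least 25% apart from control were 5 members at 0.078 µM and 24 hpf with size factors and 1 at 0.078 µM and 96 hpf after rescaling. Quantile normalization gave shares of all FPKM of 9.02% and 9.01% in control and 0.078 µM at 24 hpf and of 10.4%, 10.5% and 10.7% at 96 hpf. Without each library in turn, 180 to 195 members were chosen again, 5561 to 5786 transcripts stayed within the limit, the median ratio was 1.246 to 1.264, and 51 to 62 members were above and 82 to 95 below at 96 hpf. Fewer libraries loosen the rule by construction. With pseudocounts of 0.1 and 5 none of the medians or counts of members moved beyond the spread used. For the remaining changes the cause was not tested.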
